A study of Bos taurus with 8 samples.

Results

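The 7 genes described here are GADD45A, GADD45B and GADD45G, DDIT4 and its paralog DDIT4L, DDIT3, and CDKN1A. They were chosen with earlier results of these data known. Each was taken by name, through the probe whose RefSeq transcript accession belongs to it. All 7 had such a probe among the 7788 genes named on the array. A probe was kept when it stood well above background in at least 4 of 16 channel readings (8 arrays with 2 channels). All 7 were kept, of 6693 named genes kept in all, each was above background in all 16 readings, and no member passed the filter through a single breed.

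Samples were semitendinosus muscle, a muscle of the hind limb, of 12 bulls aged 15 months. There were 4 Hereford bulls, 4 Holstein-Friesian bulls, both breeds being labelled well marbled, and 4 bulls of the lean Limousin breed. Each of 8 Agilent 2-colour arrays carried total RNA of 1 marbled bull and 1 Limousin bull, and the same 4 Limousin bulls were used on both slides. Hereford was always in Cy5 on its slide and Holstein-Friesian always in Cy3 on the other, so breed, dye and slide cannot be told apart in a single comparison with Limousin. The values below are log2 ratios of breed over Limousin, 1 per array, and calls are at a limma adjusted p under 0.05 over 17061 probes. All 10 measured skeletal muscle markers stood above background in every reading. In bulk muscle, fewer cells of a type and less RNA per cell cannot be told apart, and precision is bounded by the 4 arrays per breed.

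GADD45 proteins are small acidic proteins that appear after growth arrest or DNA damage. They bind the kinase MAP3K4 upstream of p38 and JNK, and partners of the cell cycle such as PCNA, CDK1 and CDKN1A. GADD45A is known in mouse muscle as a gene that ATF4 switches on during fasting and immobilisation, and that also rises after loss of nerve supply. DDIT4, also called REDD1, restrains the growth kinase complex mTORC1 through TSC2 and responds to low oxygen, fasting and glucocorticoids. DDIT4L, or REDD2, acts on the same complex and is abundant in skeletal muscle. DDIT3, or CHOP, is a transcription factor of the integrated stress response, and CDKN1A, or p21, inhibits cyclin-dependent kinases and is a classical target of p53.

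The members called were not the same in the 2 comparisons with Limousin, which share the Limousin bulls. In Hereford muscle GADD45A rose and DDIT4L fell. In Holstein-Friesian muscle GADD45G, DDIT4, GADD45B, GADD45A and DDIT3 rose. GADD45A was the 1 member called in both breeds, and CDKN1A was called in neither. Over all probes 7.14% were called in Hereford (3.39% higher and 3.75% lower), against 2 of 7 members, and 6.45% in Holstein-Friesian (3% higher and 3.45% lower), against 5 of 7. Because the 7 genes were chosen with earlier results of these data known, their larger shares are a description and not an independent test. The median log2 ratio of the 7 genes was -0.09 in Hereford and 1.09 in Holstein-Friesian, while over all probes it was 0.0075 and -0.015.

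**Figure D1:**
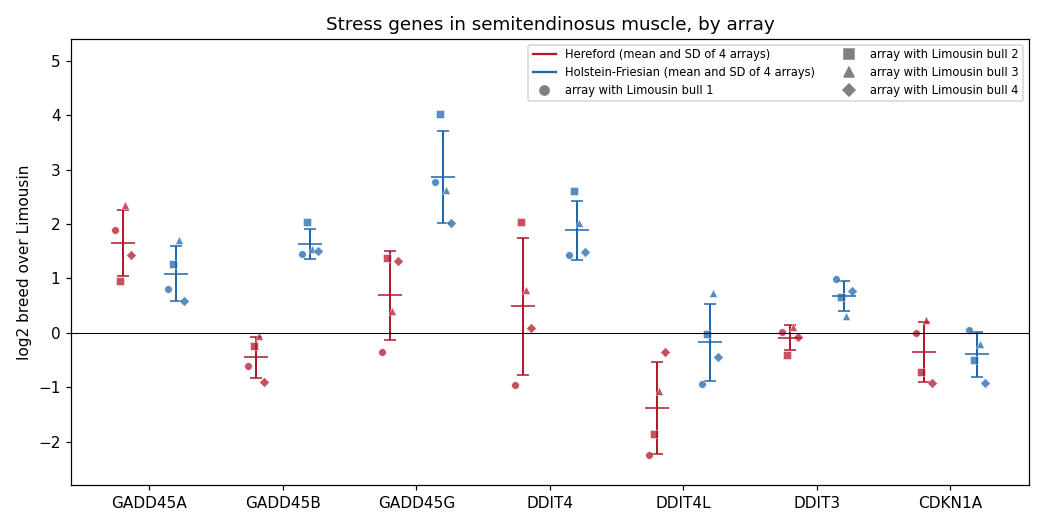
Log2 ratio of breed over Limousin for the 7 genes, 1 point per array, with the mean and SD of the 4 Hereford (red) and 4 Holstein-Friesian (blue) arrays; marker shape gives the Limousin bull on the array. GADD45B, GADD45G and DDIT3 are the 3 genes whose Hereford points all lie below the Holstein-Friesian ones, as was seen in 5.98% of all probes. GADD45A lies above 0 on all 8 arrays, as did 3.16% of all probes.

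GADD45A, the family member tied to muscle wasting in mice, was higher than in Limousin on every array. In Hereford its log2 ratios were 1.88, 0.95, 2.34 and 1.43, with a mean of 1.65 ± 0.60 (SD, n = 4), a 3.14-fold rise (limma adjusted p = 0.0127). In Holstein-Friesian they were 0.81, 1.26, 1.71 and 0.58, with a mean of 1.09 ± 0.50 (SD, n = 4), a 2.13-fold rise (limma adjusted p = 0.0391). The arrays of the breeds overlapped, and the difference between the breeds, 0.56 log2 with a 95% interval of -0.23 to 1.35, did not pass (limma adjusted p = 0.396). With median centring it was 1.14 and passed (limma adjusted p = 0.0207), a setting in which 6238 of all 17061 probes passed in the difference. Of all kept probes, 3.16% were above 0 on all 8 arrays, and GADD45A was the only one of the 7 genes among them. Limousin bull 3 had the lowest GADD45A reading of the 4 Limousin bulls in either dye (10.6 log2 in Cy5 and 10.4 in Cy3), and both arrays that carried it gave the highest ratio of their breed. The Hereford call was lost without replicate 2 (1.89 log2, limma adjusted p = 0.0615), without replicate 4 (1.72, 0.0746) and when the Hereford arrays were fitted alone (0.0639). In these settings in turn, 45, 30 and 27 of all probes were called in Hereford, against 1218 with all 8 arrays. The Holstein-Friesian call was lost without any one of the 4 replicates (0.88 to 1.26 log2, limma adjusted p 0.0818 to 0.127), with no filter on dim probes (0.0508) and with that breed's arrays alone (0.0518). With 1 replicate left out, 78 to 810 of all probes were called in Holstein-Friesian, against 1100 with all 8 arrays.

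GADD45G, a family member induced by cytokines, showed the largest ratio of the 7 genes in Holstein-Friesian. In Hereford its log2 ratios were -0.35, 1.38, 0.41 and 1.32, with a mean of 0.69 ± 0.82 (SD, n = 4, limma adjusted p = 0.292). Arrays 2 and 4 stood well above Limousin, while array 1 stood below it. In Holstein-Friesian the log2 ratios were 2.76, 4.02, 2.63 and 2.03, with a mean of 2.86 ± 0.84 (SD, n = 4), a 7.27-fold rise (limma adjusted p = 0.00755). By size of the ratio it ranked 6 among the 6693 named genes of that comparison. The highest Hereford ratio lay below the lowest Holstein-Friesian one, a separation in this direction that 5.98% of probes showed. The difference, -2.17 log2 with a 95% interval of -3.34 to -0.999, had a limma adjusted p of 0.0648, and passed with processed signals (0.0379), with the deposited ratios (0.0378), with a smaller offset (0.0471), with the filter on readings all above background (0.0453) and with median centring (-1.57, 0.0246). With median centring 6238 of all 17061 probes passed in the difference. The Holstein-Friesian rise kept its call under all 13 alternatives, with 2.41 to 3.14 log2 and a limma adjusted p of at most 0.0495. Single-channel GADD45G readings spanned 11.1 to 12.9 log2 in Hereford bulls and 13.2 to 15.6 in Holstein-Friesian bulls, against 11.2 to 11.6 in Limousin bulls.

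GADD45B, known for its rapid induction by TGF-beta and NF-kappa-B, was the only one of the 7 genes whose difference between the breeds passed. In Hereford its log2 ratios were -0.60, -0.23, -0.053 and -0.90, with a mean of -0.45 ± 0.38 (SD, n = 4, limma adjusted p = 0.116). In Holstein-Friesian they were 1.44, 2.04, 1.53 and 1.499, with a mean of 1.63 ± 0.28 (SD, n = 4), a 3.09-fold rise (limma adjusted p = 0.00311). All 4 Hereford arrays lay below 0 and all 4 Holstein-Friesian arrays above 1. Over all probes, 5.98% had every Hereford ratio below every Holstein-Friesian one. The difference was -2.08 log2, with a 95% interval of -2.56 to -1.59 (limma adjusted p = 0.0105), where 2.71% of probes passed (1.56% higher and 1.15% lower in Hereford). It was not called without replicate 2 (-2.01, 0.0911), replicate 3 (-2.24, 0.0502) or replicate 4 (-1.97, 0.109). The rise in Holstein-Friesian kept its call under all 13 alternatives, with 1.29 to 1.79 log2. Read against Limousin in the same dye, from the other slide, the ratio was -0.31 in Hereford and 1.49 in Holstein-Friesian, and the difference was -1.80 and passed (limma adjusted p = 0.0189).

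**Figure D2:**
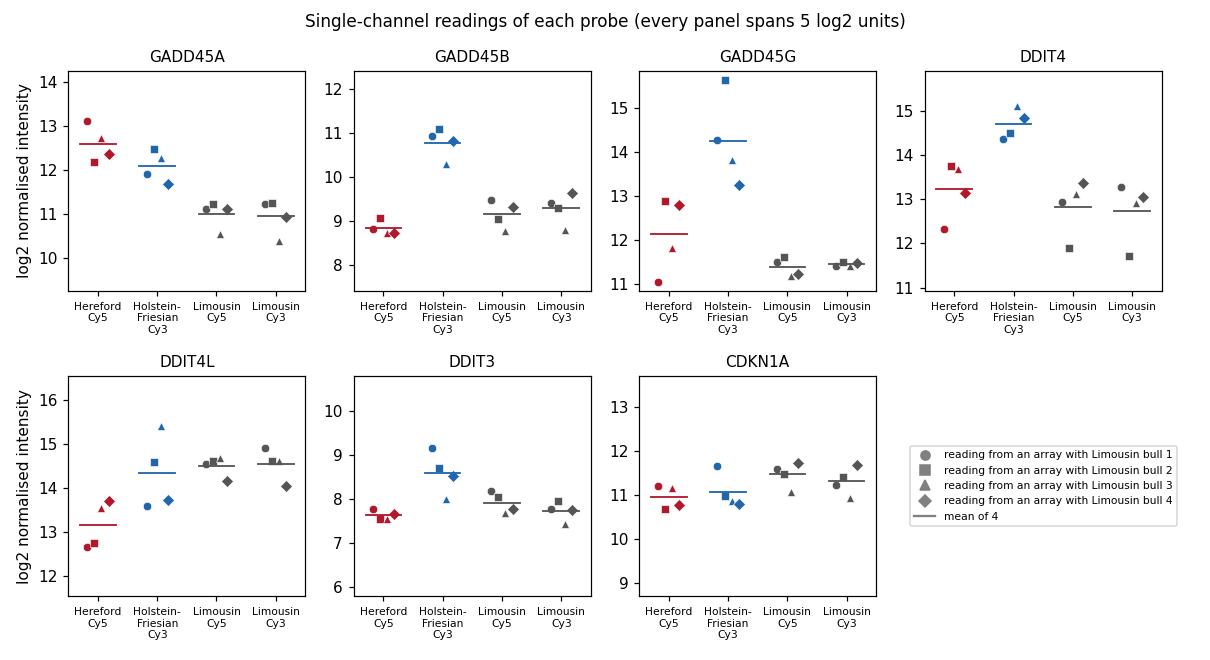
Single-channel log2 intensity of the 7 probes after loess within arrays and quantile scaling of mean brightness between them, in Hereford (Cy5), Holstein-Friesian (Cy3) and Limousin (Cy5, then Cy3); each point is 1 reading and each line a mean of 4. The 2 Limousin columns hold the same 4 bulls, and their means differ by at most 0.19 log2 in any panel, while the Holstein-Friesian mean of GADD45G stands at 14.2 against 11.4 in both Limousin columns.

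The 2 mTORC1 inhibitors of the group were called in different breeds. In Hereford DDIT4 had log2 ratios of -0.96, 2.04, 0.78 and 0.092, a mean of 0.49 ± 1.26 (SD, n = 4, limma adjusted p = 0.552), and the widest spread over arrays of the 7 genes, 3.01 log2. In Holstein-Friesian DDIT4 rose, with 1.43, 2.61, 2.01 and 1.48 log2 and a mean of 1.88 ± 0.55 (SD, n = 4), a 3.69-fold rise (limma adjusted p = 0.0398). Duplicate spots of the probe differed by at most 0.18 log2 on any array. Low readings stood on both sides of the ratio. Among Hereford bulls, number 1 had the lowest reading (12.3 log2, against 13.1 to 13.8 in the other 3). Among Limousin bulls, number 2 had the lowest (11.9 in Cy5 and 11.7 in Cy3, against 12.9 to 13.4), and both arrays with that bull gave the highest DDIT4 ratio of their breed. Holstein-Friesian readings, at 14.4 to 15.1, lay above every Limousin and Hereford reading. The difference between the breeds in DDIT4, -1.39 log2 with a 95% interval of -2.76 to -0.024, did not pass in the fit without pairing (limma adjusted p = 0.231). Paired by Limousin bull, the differences were -2.39 to -0.56 log2, all below 0, and did not pass either (limma adjusted p = 0.0603). Its Holstein-Friesian call was lost without replicate 2 (1.64, 0.0783), replicate 3 (1.84, 0.157) or replicate 4 (2.02, 0.151), and with no filter on dim probes (0.0529).

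DDIT4L was called in Hereford. In Hereford its log2 ratios were -2.24, -1.86, -1.07 and -0.34, with a mean of -1.38 ± 0.85 (SD, n = 4), so the level fell to 0.38 of that in Limousin (limma adjusted p = 0.0493). In Holstein-Friesian they were -0.94, -0.015, 0.73 and -0.44, with a mean of -0.17 ± 0.71 (SD, n = 4, limma adjusted p = 0.819). Hereford readings, 12.7 to 13.7 log2, all lay below the Limousin ones, 14.05 to 14.9, whereas Holstein-Friesian readings spanned 13.6 to 15.4 and overlapped with both. The Hereford call sat at the threshold and was lost under 7 of 13 alternatives, among them each omission of 1 replicate (-1.73 to -1.09 log2, limma adjusted p 0.0898 to 0.235) and the same-dye reading (-1.33, 0.0651), while the ratio stayed below 0 in all 13. Of all probes, 30 to 1055 were called in Hereford with 1 replicate left out and 683 in the same dye, against 1218 without these changes. The difference between the breeds, -1.21 log2 with a 95% interval of -2.31 to -0.11, did not pass (limma adjusted p = 0.202). In Hereford DDIT4 was not called and DDIT4L fell, and in Holstein-Friesian DDIT4 rose and DDIT4L was not called.

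DDIT3 was the dimmest of the 7 probes, with net signals of 76 to 317 intensity units, and moved least among those called. In Hereford its log2 ratios were 0.011, -0.41, 0.12 and -0.083, with a mean of -0.09 ± 0.23 (SD, n = 4, limma adjusted p = 0.713). In Holstein-Friesian they were 0.98, 0.66, 0.31 and 0.76, with a mean of 0.68 ± 0.28 (SD, n = 4), a 1.60-fold rise (limma adjusted p = 0.0184). The highest Hereford ratio, 0.12, stood below the lowest Holstein-Friesian one, 0.31, a separation in this direction that 5.98% of probes showed. The difference, -0.77 log2 with a 95% interval of -1.16 to -0.39, had a limma adjusted p of 0.055. It was larger and passed with processed signals (-1.10, 0.0348), with the deposited ratios (-1.10, 0.0341), with a smaller offset (-0.90, 0.0424) and in the same dye (-1.16, 0.0364). The Holstein-Friesian rise was lost without replicate 1 (0.58, limma adjusted p = 0.0601), replicate 2 (0.69, 0.079) or replicate 4 (0.65, 0.122).

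CDKN1A did not pass in either breed. Its log2 ratios were -0.0017, -0.73, 0.23 and -0.91 in Hereford, a mean of -0.35 ± 0.55 (SD, n = 4, limma adjusted p = 0.37). They were 0.048, -0.50, -0.20 and -0.92 in Holstein-Friesian, a mean of -0.39 ± 0.42 (SD, n = 4, limma adjusted p = 0.318). The 95% intervals were -0.85 to 0.14 and -0.89 to 0.10, so a rise of the size seen in GADD45A lay outside both. The difference between the breeds was 0.041 log2, with a 95% interval of -0.66 to 0.74 (limma adjusted p = 0.958). Limousin bull 4 had the highest CDKN1A readings among Limousin bulls (11.7 log2 in both dyes), and the array with that bull had the lowest ratio in each breed. With median centring in place of loess the Holstein-Friesian ratio was -0.80 and passed (limma adjusted p = 0.0202), as did 7564 of all 17061 probes in that breed.

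Over both marbled breeds, with 1 mean per Limousin bull, none of the 7 genes passed in limma, against 0.598% of all probes (0.322% higher). An unadjusted limma p under 0.05 was found for 6 of the 7 genes and for 3336 of all 17061 probes. GADD45G stood at 1.78 ± 0.65 log2 (SD, n = 4 bulls, limma adjusted p = 0.0564) and GADD45A at 1.37 ± 0.46 (0.0554). Both were above 0 for all 4 bulls, as were GADD45B, DDIT4 and DDIT3, while DDIT4L was below 0 for all 4 and CDKN1A was mixed. GADD45G and GADD45A passed with processed signals, with the deposited ratios, with a smaller offset, with median centring, with readings all above background and with the Limousin bull as a replicate block over all 8 arrays (limma adjusted p = 0.0187 for GADD45G and 0.0111 for GADD45A). The block also gave a call to GADD45B (0.59 log2, limma adjusted p = 0.0312), and median centring gave one to GADD45B (0.48, 0.0488) and DDIT4L (-0.88, 0.0331). Of all 17061 probes, 910 were called with the block and 1058 with median centring. The breed means behind the GADD45B value were -0.45 in Hereford and 1.63 in Holstein-Friesian. DDIT4 (1.19), DDIT3 (0.29), DDIT4L (-0.77) and CDKN1A (-0.37) had limma adjusted p-values of 0.137 to 0.365.

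Dye was checked on the Limousin bulls themselves, each read in Cy5 on one slide and in Cy3 on the other. A dye effect adds to a Hereford ratio, subtracts from a Holstein-Friesian one and counts in full, from both sides, in their difference. For the 7 genes the Cy5 minus Cy3 reading of the same bull averaged -0.14 (GADD45B) to 0.19 log2 (DDIT3), with limma adjusted p-values of 0.173 to 0.777, and 4.4% of all probes passed in this check. The 5 members that rose in Holstein-Friesian all kept their call when set against Limousin in the same dye. In Hereford GADD45A kept its call (1.60 log2, limma adjusted p = 0.0206) and DDIT4L did not. The same-dye reading compares arrays on different slides, so slide remains in it. The Cy5 and Cy3 readings of a Limousin bull also come from different slides, so dye and slide cannot be told apart there. The same-dye ratio is the array's own ratio shifted by that Cy5 minus Cy3 reading, so it is not a separate check.

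**Figure D3:**
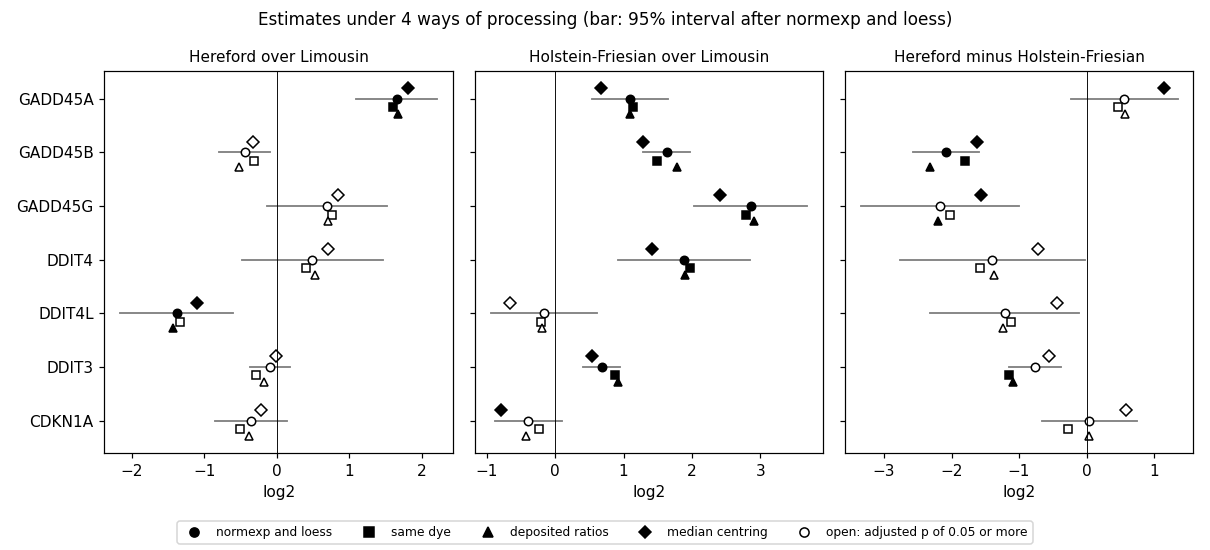
Log2 estimates of the 7 genes in Hereford over Limousin, Holstein-Friesian over Limousin and the difference of the breeds, under 4 ways of processing; filled markers have a limma adjusted p under 0.05 and grey bars give the 95% interval after normexp and loess. The Holstein-Friesian rises of GADD45A, GADD45B, GADD45G, DDIT4 and DDIT3, the Hereford rise of GADD45A and the difference in GADD45B are filled under all 4.

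Genes of the pathways these members act in were counted from 7 lists holding 159 further genes, of which 74 were measured. In Hereford 7 of the 74 rose and 1 fell, and in Holstein-Friesian 6 rose and 4 fell, with medians of 0.0091 and 0.021 log2. The medians over all probes were 0.0075 and -0.015. Of all probes, 3.39% rose and 3.75% fell in Hereford, and 3% rose and 3.45% fell in Holstein-Friesian. These shares also stand beside the counts of each list below.

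Of 14 measured genes of the integrated stress and unfolded protein responses, 3 rose in Hereford (median 0.20 log2) and 1 in Holstein-Friesian (median 0.12). ATF3, a transcription factor that acts beside DDIT3, rose by 2.77 ± 0.79 in Hereford (SD, n = 4, limma adjusted p = 0.0307) and by 4.26 ± 1.72 in Holstein-Friesian (0.00948). HSPA5, the chaperone of the endoplasmic reticulum, and XBP1, a transcription factor of its stress response, rose in Hereford by 0.58 (limma adjusted p = 0.0239) and 0.59 (0.033). In the same dye these 3 Hereford calls were lost (limma adjusted p = 0.0973 for ATF3, 0.0632 for HSPA5 and 0.111 for XBP1). Over all 13 alternatives the Hereford call was lost under 4 for ATF3, 7 for HSPA5 and 8 for XBP1, and the ATF3 call in Holstein-Friesian without replicate 2 (limma adjusted p = 0.0731) or 4 (0.0662). In Holstein-Friesian HSPA5 stood at 0.34 (limma adjusted p = 0.11) and XBP1 at 0.42 (0.0934). DDIT3 itself was called in Holstein-Friesian and not in Hereford, where those 3 genes were called, but the difference between the breeds did not pass for any of the 14 genes.

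Among 12 measured p53 targets, the genes with which CDKN1A is usually grouped, 1 rose in Hereford and 1 rose and 2 fell in Holstein-Friesian, with medians of -0.019 and -0.016 log2. MDM2, the ubiquitin ligase that p53 induces against itself, stood at 0.13 in Hereford and fell in Holstein-Friesian by 0.62 on the log2 scale (limma adjusted p = 0.0114). BTG1, an antiproliferative gene, stood at 0.045 in Hereford and rose in Holstein-Friesian by 1.18 (limma adjusted p = 0.0166). CCNG1, a cyclin that p53 induces, rose in Hereford (0.62, limma adjusted p = 0.0237) and fell in Holstein-Friesian (-0.55, 0.0347). Both calls on CCNG1 were lost in the same dye, with 0.28 in Hereford (limma adjusted p = 0.143) and -0.20 in Holstein-Friesian (0.26), and each was lost under 7 of 13 alternatives in all. The MDM2 and BTG1 calls in Holstein-Friesian were lost without replicate 2, 3 or 4 (limma adjusted p 0.0519 to 0.067 for MDM2 and 0.0625 to 0.109 for BTG1). The difference between the breeds passed for CCNG1 (1.17, limma adjusted p = 0.0213) and MDM2 (0.75, 0.0341), and not for BTG1 (-1.14, 0.0736).

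The kinases and the mTORC1 machinery showed few calls. Of 7 p38 and JNK kinase genes, MAPK14, which encodes p38 alpha, rose in Hereford by 0.36 and MAP2K4, a kinase that activates JNK, fell by 0.36 on the log2 scale (limma adjusted p = 0.039 each), and both lost the call under 11 of 13 alternatives. In Holstein-Friesian MAP2K4 stood at -0.31 (limma adjusted p = 0.0656) and none of the 7 was called. Of 13 mTORC1 genes none was called in Hereford, where RRAGA stood at 0.31 (limma adjusted p = 0.166). RRAGA, a GTPase that carries the amino acid signal to mTORC1, fell in Holstein-Friesian by 0.68 on the log2 scale (limma adjusted p = 0.0205). The difference between the breeds passed for RRAGA (0.99, limma adjusted p = 0.0341) and for no other of the 13 mTORC1 genes. In the same dye RRAGA was -0.19 in Hereford and -0.18 in Holstein-Friesian, neither called. Its Holstein-Friesian call was also lost without any one of the 4 replicates (limma adjusted p 0.0515 to 0.101). No gene was called among 11 cell cycle partners and inhibitors, with CDK4 at -0.39 in Hereford (limma adjusted p = 0.0512) and CDKN2D at -0.58 in Holstein-Friesian (0.0654). CDKN2D passed in Holstein-Friesian with processed signals (-0.98, limma adjusted p = 0.0258), deposited ratios (-0.98, 0.0262), a smaller offset (-0.71, 0.0436) and median centring (-0.67, 0.0138). With median centring 7564 of all 17061 probes passed in that breed.

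The glucocorticoid and FOXO list, which holds genes that rise with DDIT4 in fasting muscle, had 1 of 7 genes higher in Hereford and 3 of 7 in Holstein-Friesian. PDK4, which holds back pyruvate oxidation, rose by 2.71 ± 0.68 in Hereford (SD, n = 4, limma adjusted p = 0.0168) and by 3.05 ± 1.29 in Holstein-Friesian (0.0112). ERRFI1, a feedback inhibitor of EGFR signalling, stood at 0.33 in Hereford and rose in Holstein-Friesian by 1.16 (limma adjusted p = 0.0159). TRIM63, the muscle ubiquitin ligase MuRF1, stood at 0.096 in Hereford and rose in Holstein-Friesian by 1.07 (limma adjusted p = 0.0301). The TRIM63 call was lost with median centring (0.60, limma adjusted p = 0.0896), with that breed's arrays alone (0.0686) and without replicate 1, 2 or 4 (0.0995 to 0.153). Calls were lost for PDK4 in Hereford with that breed's arrays alone (limma adjusted p = 0.0541) and without replicate 2 or 4 (0.087 and 0.0835), for PDK4 in Holstein-Friesian without replicate 2 (0.0728), and for ERRFI1 without replicate 2, 3 or 4 (0.0616 to 0.0823). The difference between the breeds did not pass for PDK4, ERRFI1 or TRIM63 (limma adjusted p 0.126 to 0.804). Of 10 genes of the denervation response, in which GADD45A is known to rise in mice, CHRNA1, the alpha subunit of the muscle acetylcholine receptor, rose in both breeds (0.94 in Hereford, limma adjusted p = 0.0142, and 0.70 in Holstein-Friesian, 0.0319). Its Hereford call was lost in the same dye (0.555, limma adjusted p = 0.0707), with that breed's arrays alone (0.0699) and without replicate 2, 3 or 4 (0.0593 to 0.0968). Its Holstein-Friesian call was lost with median centring (0.44, limma adjusted p = 0.0715) and without any one of the 4 replicates (0.0597 to 0.13). CHRNG, its fetal gamma subunit, stood at 0.039 in Hereford and fell in Holstein-Friesian by 0.84 on the log2 scale (limma adjusted p = 0.0314). With processed signals or deposited ratios CHRNG stood at -2.35 and with a smaller offset at -1.23, and its call was lost without replicate 2 (-0.78, limma adjusted p = 0.0599), 3 (-0.81, 0.136) or 4 (-0.81, 0.161).

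**Figure D4:**
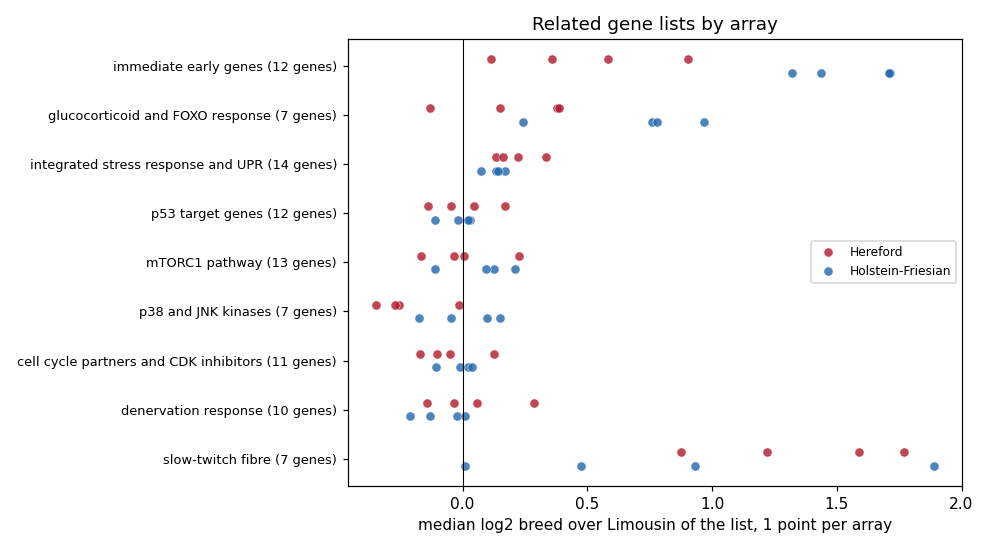
Median log2 ratio of breed over Limousin of the measured genes of 9 lists, 1 point per array, for Hereford (red) and Holstein-Friesian (blue). Immediate early genes lie at 0.12 to 0.90 on the Hereford arrays and at 1.32 to 1.71 on the Holstein-Friesian arrays, while the p53, mTORC1 and cell cycle lists lie between -0.17 and 0.224 on all 8.

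Immediate early genes, which cells switch on soon after a stimulus, and slow-twitch fibre genes were also counted. Of 12 measured immediate early genes 4 rose in Hereford and 8 in Holstein-Friesian. Over all probes 3.39% rose and 3.75% fell in Hereford, and 3% rose and 3.45% fell in Holstein-Friesian. The array medians of the immediate early genes were 0.12 to 0.90 in Hereford and 1.32 to 1.71 in Holstein-Friesian, with no overlap between the breeds. The difference between the breeds passed for 1 of these 12 genes, lower in Hereford. Slow-twitch fibre genes had array medians of 0.87 to 1.77 in Hereford and 0.011 to 1.89 in Holstein-Friesian, with 4 of 7 called higher in Hereford and 1 of 7 in Holstein-Friesian. The array medians of skeletal muscle markers and of leukocyte markers did not overlap between the breeds either. Among single probes, 14% had ratios that did not overlap between the breeds. The difference passed for 2 of 10 skeletal muscle markers and 0 of 6 leukocyte markers. All 10 measured skeletal muscle markers averaged above 0 in Hereford, with array medians of 0.12 to 0.58 and none called. In Holstein-Friesian their array medians were -0.43 to -0.072 and 2 fell, named here after their values were seen: MB, the oxygen store myoglobin (-1.02, limma adjusted p = 0.0167), and TNNC2, fast troponin C (-0.68, 0.0187). Leukocyte markers had array medians of -0.26 to -0.070 in Hereford and 0.016 to 0.55 in Holstein-Friesian. Of the other cell types whose markers were listed, adipocyte genes had 1 gene higher and 1 lower among 8 in Holstein-Friesian, fibroblast genes 1 lower among 7, leukocyte genes 1 higher among 6, and endothelial genes none called among 4. In Hereford no gene of these 4 lists was called. The part of these in the changes of the 7 genes was not tested.

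Genes with the most similar profile were ranked by Pearson r of the log2 ratio over the 8 arrays among 6686 named genes outside the 7, as a description. The 8 points share Limousin bulls, dyes and slides. For GADD45A they were DPP7 (0.967), RAB28 (0.941) and TDG (0.921). For GADD45B they were CCDC97 (0.979), PTGS1 (0.976) and NUDT16 (0.975), and for GADD45G ARMC2 (0.970), TMEM231 (0.965) and TMEM128 (0.962). DDIT4 was most like TFAP4 (0.942), GRTP1 (0.938) and NFKBIA (0.937), and DDIT4L most like DNPEP (0.997), EIF3G (0.974) and STT3A (0.973). DDIT3 was most like GATB (0.935), PACSIN2 (0.926) and HMOX2 (0.925), and CDKN1A most like TNFRSF25 (0.960), ECI1 (0.935) and AMT (0.928). Over the 4 arrays of a single breed, r of these pairs ran from 0.31 (HMOX2 with DDIT3 in Hereford) to 0.999 (EIF3G with DDIT4L in Holstein-Friesian). The size of change could differ widely from that of the member: PTGS1 averaged -0.50 on the Hereford arrays and 1.13 on the Holstein-Friesian ones, close in pattern to GADD45B, whereas DPP7 had -0.11 and -0.38, both below 0, beside 1.65 and 1.09 for GADD45A.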

How the data were processed

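RNA of 12 bulls was measured on 8 two-colour arrays, extracted with Trizol per the labels' protocols. The submitters' processing notes name Agilent Feature Extraction 10.7.3.1. The deposited scanner output gives median intensity of each spot and of its background, and processed intensity that the authors' software had corrected for background and dye. The deposited log10 ratios of Cy5 over Cy3 equalled those of the scanner output in 44407 of 44407 spots per array (to within 1e-09), and their log2 form, turned to breed over Limousin, served as an alternative to log2 ratios computed from deposited intensities. Columns belonging to no sample numbered 0.

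Background was corrected with normexp (offset 50) and arrays normalized by loess (span 0.3, controls given no weight) in limma 3.58.1 (R 4.3.3), with statmod 1.5.0. Control spots and outlier spots (6 to 29 per array) were left out, and no other spot was marked saturated in either channel (0 on each array). Spots of a probe were averaged over 21475 probes, of which 17061 were kept. A reading counted as above background when a share of at least 0.5 of a probe's spots did. Hereford channels had a median net signal of 97 to 139 units, Holstein-Friesian channels 30.5 to 46.5 and Limousin channels 63 to 118. RefSeq transcripts (assembly ARS-UCD2.0) gave symbols to 8297 probes. The array annotation follows another build, so no coordinates are given. Each of the 7 genes had 1 probe with 2 spots. Both breed means and their difference came from 1 limma model of the 8 arrays without pairing (lmFit, then eBayes), two-sided, with Benjamini-Hochberg adjustment. The comparison of both breeds used 4 means, 1 per Limousin bull. The labels name the same Limousin animal under each replicate number, which pairs the arrays, and deviations from the breed means correlated at 0.10 to 0.50 within pairs. Intervals are 95% intervals of the limma fit. The fit was tested on simulated data, and figures were drawn with matplotlib 3.10.9.

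Members and gene lists were chosen with earlier results of these data known. All 7 members were named. From each of the 7 pathway lists up to 4 called genes with the smallest p were named per breed, or the 1 with the smallest p where none was called, and the 3 most similar profiles per member by Pearson r. The immediate early and marker lists were given by counts.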

Additional observations from a re-analysis of the deposited data

Results flagged for a closer look

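In GADD45B the Holstein-Friesian array of replicate 2 had a log2 ratio of 2.04, against 1.44, 1.499 and 1.53 on the other 3. The gap to its nearest neighbour was 0.85 of the whole range, above Dixon's critical value for groups of 4. It was 1 of 14 groups tested in this way, of which chance passes a few percent. GADD45B also differed between the breeds. Hereford minus Holstein-Friesian was -2.08 log2 by limma's test of the difference (adjusted p = 0.0105), and the difference was below 0 for all 4 Limousin bulls.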

How the results depend on the processing

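Of the values of the 7 genes under the alternatives, 286 kept direction and call, 26 lost a call, 26 gained one and 5 changed sign. For the 22 listed results, 185 kept both, 93 lost a call, 6 gained one and RRAGA in Hereford changed sign in the same dye (-0.19). The sign changes of members were all at values not called. With 1 replicate left out, DDIT4 in Hereford spanned -0.030 to 0.97, DDIT3 in Hereford -0.16 to 0.015, DDIT4L in Holstein-Friesian -0.47 to 0.091 and CDKN1A in the difference -0.089 to 0.13, and in the same dye the last was -0.27. Members called in Hereford were 2, and 1 with no filter on dim probes, 1 in the same dye, 0 with that breed's arrays alone and 0 to 1 with 1 replicate left out. In Holstein-Friesian 5 were called, and 6 with median centring, 4 with that breed's arrays alone, 3 with no filter and 2 to 3 with 1 replicate left out. For both breeds together 0 were called, and 2 with processed signals, offset 16, all 16 readings above background or deposited ratios, 4 with median centring and 3 with the replicate block. For the difference 1 was called, and 3 with processed signals, offset 16, median centring or deposited ratios, 2 with all readings above background or in the same dye, and 0 to 1 with 1 replicate left out. The replicate block, which pairs arrays of the same Limousin bull, moved no other count of members. With that pairing the limma adjusted p of the difference was 0.0226 for GADD45B, 0.0504 for GADD45G and 0.0603 for DDIT4. It was 0.0617 for DDIT3, 0.104 for DDIT4L, 0.21 for GADD45A and 0.866 for CDKN1A.

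Counts over all probes moved more. In Hereford 1218 were called, against 27 with that breed's arrays alone, 683 in the same dye, 712 with median centring (70.5% higher, against 47.5%) and 30 to 1055 with 1 replicate left out. In Holstein-Friesian 1100 were called, against 2157 with processed signals, 2129 with deposited ratios, 7564 with median centring (56.9% higher, against 46.5%) and 78 to 810 with 1 replicate left out. For both breeds 102 were called, against 42 with no filter, 364 with offset 16, 371 with all readings above background, 444 with processed signals, 438 with deposited ratios, 910 with the replicate block (43.3% higher, against 53.9%) and 1058 with median centring (36% higher). With 1 replicate left out limma called 0 to 1, with 2339 to 3340 at an unadjusted p under 0.05. For the difference 463 were called, against 974 with processed signals, 979 with deposited ratios, 6238 with median centring, 231 in the same dye, 701 with the replicate block and 0 to 457 with 1 replicate left out. The cause of these shifts was not tested. Other probes of a member could not be tried, since each had 1. DDIT3, the dimmest member, had net signals of 76 to 317.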
